A study of Mus musculus with 12 samples.

Results

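Among 12 heart samples of a mouse study of hexokinase II, 10 fell into an atrial-poor set of 4 and an atrial-rich set of 6 chosen by the abundance of a single atrial messenger RNA, Myl7. The 2 other libraries, HKII+/- replicate 11 and HKII+/+ replicate 13, are marked by the submitters as potential outliers and were left out. A library was called atrial-poor when Myl7 made up less than 500 CPM (counts scaled to a common library total) of its counts, and atrial-rich otherwise. The atrial-poor set held HKII+/- replicates 19 and 22 and HKII+/+ replicates 17 and 21, and the atrial-rich set held HKII+/- replicates 12, 16 and 20 and HKII+/+ replicates 14, 15 and 18. All mice were C57BL/6J males of 2 to 4 months on a chow diet. HKII+/+ mice carry both copies of the hexokinase II gene (Hk2), HKII+/- mice lack 1 copy, and the study compared these genotypes. Each set held equal numbers of both genotypes. The labels name the tissue only as heart, and do not say which chambers were taken.

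The mammalian heart has thin-walled atria, which receive blood, and thick-walled ventricles, which eject it. The muscle cells of each chamber carry their own versions of the myosin light chains, atrial cells also release natriuretic peptide, and the sinus node, the pacemaker, lies in the right atrium. Fat pads, clusters of autonomic nerve cells and the roots of the great vessels sit at the base of the heart, next to the atria.

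Gene counts summed to between 17263209 and 51556592 per library. A count of 0 therefore allows up to 3 counts, which is 0.0617 to 0.174 CPM depending on the library. Levels below are CPM of the library total scaled by TMM factors unless stated, and they compare libraries, not genes. Hk2 itself measured 268 to 372 CPM in the 5 HKII+/- libraries and 494 to 568 CPM in the 5 HKII+/+ libraries, with no overlap. The cardiac muscle gene Myh6 stood at 36148 to 50655 CPM in the 10 libraries. Libraries are counted as separate animals because their titles are separate, and p-values would reflect technical spread if that were not so. HKII+/+ replicate 18 stood apart in the atrial-rich set: it had 0 counts of Bmp10 and low fat genes, as described below.

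Myl7, the regulatory light chain of atrial myosin, ranged over more than 3 orders of magnitude. Of the library total it made up 0.466 CPM in HKII+/- replicate 22 (24 counts, exact 95% Clopper-Pearson interval 0.298 to 0.693), 19.6 CPM in HKII+/- replicate 19 (17.7 to 21.7), 234 CPM in HKII+/+ replicate 21 and 368 CPM in HKII+/+ replicate 17. In the atrial-rich set it was 659 CPM in HKII+/+ replicate 14, 685 in HKII+/+ replicate 18, 703 in HKII+/- replicate 16, 744 in HKII+/- replicate 12, 796 in HKII+/+ replicate 15 and 959 in HKII+/- replicate 20. The libraries nearest the threshold were thus HKII+/+ replicate 17 below it and HKII+/+ replicate 14 above it. The intervals cover counting error only, and these values chose the sets, so they carry no test. The atrial-poor set was not uniform, because both of its HKII+/- libraries lay far below both of its HKII+/+ libraries. In bulk RNA, fewer atrial cells in a sample and less atrial RNA per cell cannot be told apart.

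To show the regulatory start of atrial genes, the 250 bases before the RefSeq start site (GRCm38.p6) are given for 4 of 5 such genes looked for, on the strand of the gene and 5′ to 3′. Capitals mark matches, on either strand, to the T-box letters GGTGTGA, the GATA letters AGATAA or TGATAA, and the NK2 letters TNAAGTG, where N is any base. The promoters are Myl7 at chr11:5898783-5899032 (minus strand), Myl4 at chr11:104550413-104550662, Bmp10 at chr6:87428744-87428993 and Nppa at chr4:148000472-148000721 (all plus strand). The fifth gene was Sln.
Myl7: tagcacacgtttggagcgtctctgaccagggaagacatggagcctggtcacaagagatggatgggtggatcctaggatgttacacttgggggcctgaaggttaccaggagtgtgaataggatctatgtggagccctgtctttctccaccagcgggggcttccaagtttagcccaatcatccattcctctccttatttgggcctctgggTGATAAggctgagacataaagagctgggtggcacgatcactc
Myl4: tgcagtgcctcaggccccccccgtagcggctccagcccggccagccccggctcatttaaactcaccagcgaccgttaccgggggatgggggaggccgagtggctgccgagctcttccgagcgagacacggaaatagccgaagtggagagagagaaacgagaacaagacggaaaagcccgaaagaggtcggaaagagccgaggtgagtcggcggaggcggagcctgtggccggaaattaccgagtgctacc
Bmp10: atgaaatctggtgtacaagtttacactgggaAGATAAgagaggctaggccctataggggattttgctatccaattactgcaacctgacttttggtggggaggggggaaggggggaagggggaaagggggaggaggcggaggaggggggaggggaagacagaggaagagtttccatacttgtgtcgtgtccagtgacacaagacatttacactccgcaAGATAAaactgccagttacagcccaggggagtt
Nppa: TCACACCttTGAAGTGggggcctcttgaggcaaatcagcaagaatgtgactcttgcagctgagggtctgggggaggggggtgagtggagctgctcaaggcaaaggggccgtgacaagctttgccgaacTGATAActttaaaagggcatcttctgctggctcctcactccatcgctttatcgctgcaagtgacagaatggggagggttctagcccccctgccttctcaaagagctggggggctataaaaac

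Bmp10 held AGATAA beginning 219 and 33 bases before the start, Myl7 held TGATAA at 42 bases, and Nppa held TCACACC (the T-box letters on the other strand) at 250 bases, TGAAGTG at 241 and TGATAA at 122. Myl4 held none of the letters in this window. Of 27025 RefSeq promoter windows of the same length, 3.31% held the T-box letters, 10.3% AGATAA, 8.16% TGATAA and 10% the NK2 letters. These matches describe letters only.

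The classical atrial genes Sln and Myl4 followed Myl7 across the atrial-poor libraries. Values of the atrial-poor libraries are given throughout in the order HKII+/- replicates 22 and 19, then HKII+/+ replicates 21 and 17. Sln, which encodes sarcolipin, the atrial inhibitor of the calcium pump, measured 0.0823, 5.76, 89.02 and 136 CPM against 214 to 342 CPM (median 271) in the atrial-rich set. Myl4, the essential light chain of atrial myosin (chromosome 11), measured 1.17, 24.8, 326 and 414 CPM against 749 to 1145 CPM (median 907). Both kept the same order among the atrial-poor libraries as Myl7, and neither set overlapped the other. The estimated log2 fold changes, atrial-poor over atrial-rich, were -3.05 (SE 1.07) for Sln and -3.08 (SE 1.11) for Myl4. Because the sets were made from an atrial gene, differences of atrial genes, and counts of how many were called, are descriptions that support nothing.

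Nppa, which encodes atrial natriuretic peptide and is also made at a lower level by ventricular muscle, kept a sizeable level where the light chains were nearly absent. It measured 453, 282, 1710.2 and 2205 CPM in the atrial-poor libraries against 2683 to 4524 CPM (median 3862). Here HKII+/- replicate 19, not 22, was the lowest library. The estimated log2 fold change was -2.03 (SE 0.47).

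Bmp10 separated the libraries differently. This gene, a growth factor known in the adult mouse heart from the right atrium, measured 0.0206, 0.153, 138 and 203 CPM in the atrial-poor libraries, so that HKII+/+ replicate 17 was inside and HKII+/+ replicate 21 below the 190.2 to 216 CPM of 5 atrial-rich libraries. HKII+/+ replicate 18, the remaining atrial-rich library, had 0 counts of Bmp10 at a Myl7 level of 685 CPM, where 0 counts allow up to 0.174 CPM. The estimated log2 fold change of Bmp10 was -1.96 (SE 1.76), and it was 0.34 in the HKII+/+ libraries alone. HKII+/+ replicate 17 thus had Bmp10 at the atrial-rich level with low Myl7, and HKII+/+ replicate 18 the opposite.

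**Figure D1:**
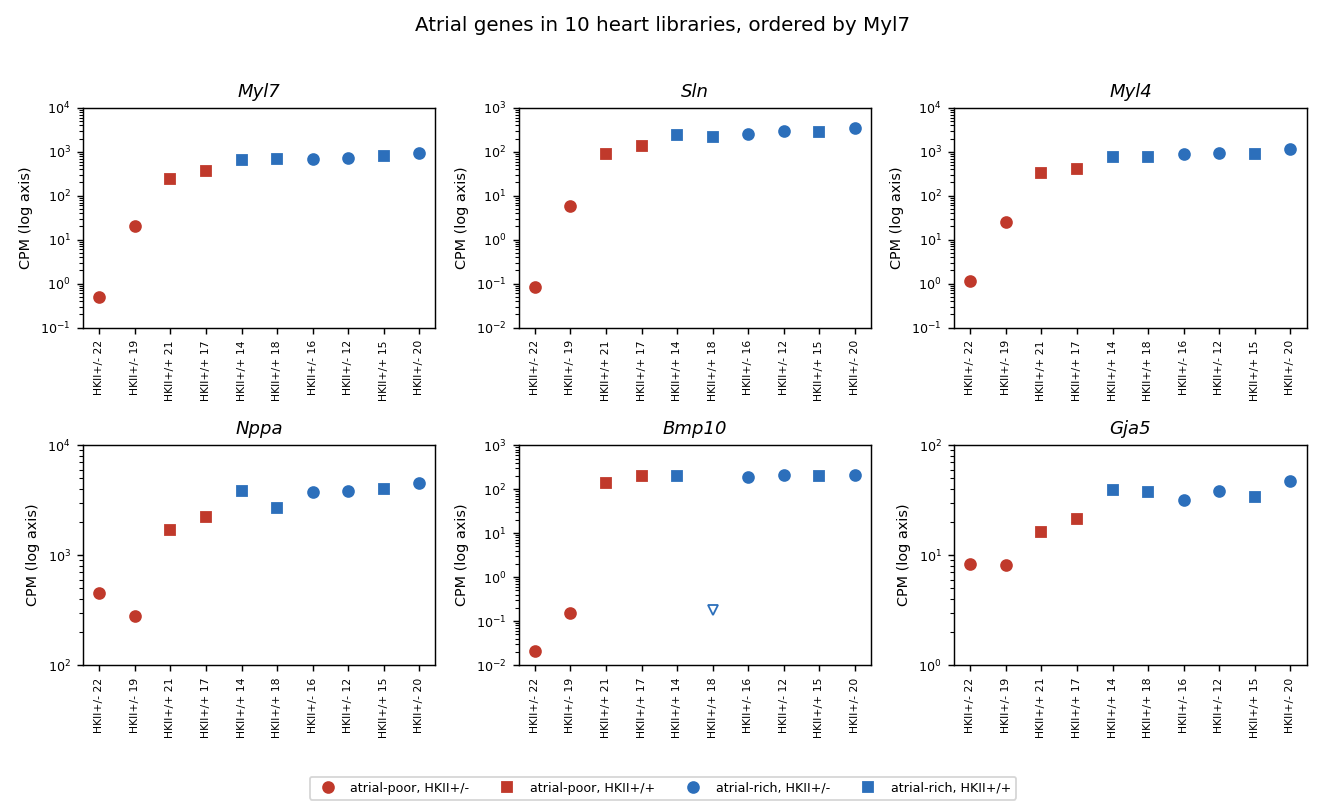
CPM of 6 atrial genes on log axes in the 10 libraries, ordered from left to right by Myl7; circles are HKII+/-, squares HKII+/+, red atrial-poor and blue atrial-rich, and an open triangle marks 0 counts drawn at the level of 3 counts. Sln and Myl4 follow Myl7, Gja5 falls less, while Bmp10 is at 138 and 203 CPM in atrial-poor HKII+/+ replicates 21 and 17 and at 0 in atrial-rich HKII+/+ replicate 18.

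Further genes enriched in atrial muscle mostly had negative estimates, of smaller size. Of a list of 14, all were tested, 6 passed an adjusted p below 0.05 in the edgeR fit across all genes, all of them lower, and in 8 the 4 atrial-poor libraries lay below all 6 others. Over all 14423 genes tested, 0.936% were called lower and 2.84% lay wholly below, and since these genes were chosen with the atrial contrast in view nothing is read from the comparison. The median log2 fold change of the list was -0.99, against 0.0038 for all genes tested. Gja5, a gap junction protein of atrial muscle, conduction fibres and arteries, measured 8.25, 8.20, 16.1 and 21.3 CPM against 31.8 to 47.8 CPM (median 37.9). Stard10, a lipid transfer protein, measured 21.4, 29.3, 57.4 and 84.3 CPM against 107 to 166 CPM (median 139). Pam, the amidating enzyme that is a main membrane protein of atrial secretory granules, measured 1022, 944, 1850.2 and 1662 CPM against 2360.3 to 3232 CPM (median 2654). In each of these 3 genes the HKII+/- pair of atrial-poor libraries was lowest and the HKII+/+ pair lay between it and the atrial-rich set.

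The channel genes of this list did not all follow. Kcnj5, a subunit of the acetylcholine-gated potassium channel, measured 83.3, 81.9, 87.2 and 115 CPM against 116 to 146 CPM. Its partner Kcnj3 measured 28.2, 26.9, 48.9 and 61.1 CPM against 55.95 to 98.3 CPM, and HKII+/+ replicate 17 overlapped the atrial-rich range. Kcna5, the voltage-gated channel of the atrial ultrarapid potassium current, was the single member with a positive estimate, 0.39 (SE 0.16), at 50.1, 24.8, 38.8 and 38.4 CPM against 24.4 to 32.8 CPM. Nr2f2, a transcription factor of atrial identity and also called, had an estimate of -0.43 (SE 0.084).

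Pacemaker and conduction genes split by gene. Of 13 tested, 1 was called, Shox2, against 0.936% of all genes called lower, and the median log2 fold change was -0.46. Shox2, a transcription factor of the sinus node and its surroundings, measured 0.452, 0.408, 0.725 and 0.639 CPM against 0.840 to 2.62 CPM (median 2.05) (log2 fold change -1.70, SE 0.33, adjusted p = 0.0478 by edgeR's quasi-likelihood test). Its sets did not overlap, but atrial-rich HKII+/+ replicates 14 and 18 lay at 0.840 and 1.10 CPM, close to the atrial-poor set. Hcn4, the main channel of the pacemaker current, did not pass (9.46, 11.4, 10.9 and 15.7 CPM against 8.77 to 15.5 CPM, log2 fold change -0.24, SE 0.17). Vsnl1, a calcium sensor known from the sinus node, measured 0.0411, 0.0509, 0.193 and 0.816 CPM against 0.349 to 1.42 CPM and also did not pass (edgeR adjusted p = 0.144), with atrial-rich HKII+/+ replicate 18 at 0.349 CPM inside the atrial-poor range. At unadjusted p below 0.05 there were 7 of the 13.

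Across all genes other than Myl7, 142 of 14423 tested (0.985%) were called between the sets with genotype as covariate, 7 higher (0.0485%) and 135 lower (0.936%) in atrial-poor hearts. Their adjusted p-values in edgeR's quasi-likelihood test were all between 0.0313 and 0.0498, just under the threshold, and 2494 genes (17.3%) had an unadjusted p below 0.05. DESeq2, limma voom and voom with sample quality weights called 644, 187 and 274 of the 14423. Counts of list members by these measures, here and below, stand against these shares. Of the genes called by edgeR, 7 of 7 higher and 129 of 135 lower did not overlap between the sets. Among all genes tested 1.5% and 2.84% did not. The calls were made on the same split, so this separation follows from the calling and supports nothing further. Since Myl7 was measured in the same libraries, these p-values say how other genes follow the Myl7 split among these 10 hearts. The calls did not hold when libraries were left out: none was made without HKII+/- replicate 12, 16, 19, 20 or 22 or without HKII+/+ replicate 15 or 21, with 1330 to 2780 genes still at unadjusted p below 0.05, and 47 were made without HKII+/+ replicate 14. Without HKII+/+ replicate 17 or 18 there were 558 and 579. Every call named here, above and below, was lost without any one of those 7 libraries.

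Most ventricular genes had slightly higher estimates in atrial-poor hearts, by at most 0.35 on the log2 scale, but none passed. Of 11 ventricular genes, 9 had positive estimates with a median log2 fold change of 0.17, and edgeR called 0, with 5 at unadjusted p below 0.05, 2 called by DESeq2, 0 by limma voom and 2 by voom with sample quality weights. Myl2, the ventricular regulatory light chain, measured 7052, 6661, 6112 and 5535 CPM against 4455 to 5910.5 CPM (median 4796), and only HKII+/+ replicate 17 overlapped the atrial-rich range through HKII+/+ replicate 18 at 5910.5 CPM. Its log2 fold change was 0.35 (95% interval 0.15 to 0.55, edgeR adjusted p = 0.0864). Myl3, the ventricular essential light chain, stood at 0.30 (0.14 to 0.46, edgeR adjusted p = 0.0742), and Irx5, a transcription factor of the ventricular wall, at 0.33 (0.10 to 0.55). Gja1, the main ventricular gap junction gene, and Kcnd2 had negative estimates, -0.23 and -0.11.

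Genes that both chambers use moved little. All 14 shared contractile and calcium-handling genes had small positive estimates (median 0.16), with edgeR calling 0, 7 at unadjusted p below 0.05, 3 called by DESeq2 and 0 by either voom fit. Myh6, the alpha heavy chain of myosin in both chambers, had a log2 fold change of 0.15 (95% interval -0.048 to 0.35), and Mybpc3, a thick-filament protein, 0.27 (0.085 to 0.46). Genes of fuel oxidation stood at the same height: 16 of 16 for fatty acid oxidation, 21 of 21 for pyruvate dehydrogenase and the citric acid cycle and 25 of 25 for oxidative phosphorylation had positive estimates, with medians of 0.15, 0.13 and 0.15. Of all genes tested, 48.9% had negative estimates. EdgeR called 0 of these, with 13, 15 and 15 at unadjusted p below 0.05, against 17.3% of all genes. DESeq2 called 2, 1 and 1, against 644 of all 14423 genes, limma voom 0, and voom with weights 1, 0 and 0. CPM are shares of a library total, so small shifts in one direction cannot be told apart from a change in the share of other tissue. Of 10 cardiac transcription factors tested, edgeR called 0, with 0 at unadjusted p below 0.05 and 0 by DESeq2 or either voom fit, and their median was 0.0043. Hand2 had the largest estimate of them, 0.39 (95% interval -0.066 to 0.84).

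The partners of natriuretic peptide did not follow Nppa as a group. Of 6 tested, edgeR called 0, with 2 at unadjusted p below 0.05, 0 by DESeq2 or limma voom and 1 by voom with weights. Npr3, the clearance receptor, which endocardium carries, measured 27.1, 36.9, 68.9 and 61.5 CPM against 52.9 to 98.7 CPM (median 93.4) (log2 fold change -0.88, SE 0.26, edgeR adjusted p = 0.120). Atrial-rich HKII+/+ replicate 18, at 52.9 CPM, lay below both HKII+/+ atrial-poor libraries. Nppb, the peptide of ventricular stretch, stood at -0.33 (SE 0.15, edgeR adjusted p = 0.289), and Corin, the protease that cleaves the Nppa precursor, at -0.036 (SE 0.064).

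Some fat genes were near 0 in HKII+/- replicates 22 and 19 and low in atrial-rich HKII+/+ replicate 18, while others stood at similar levels in all 10 libraries. Adipoq, the adipocyte hormone adiponectin, measured 0.165, 0.458, 6.24 and 9.72 CPM in the atrial-poor set. In the atrial-rich set it measured 1.98 CPM in HKII+/+ replicate 18 and 11.4 to 31.7 CPM in the other 5. Its log2 fold change was -2.40 (95% interval -4.23 to -0.56, edgeR adjusted p = 0.182), which did not pass.

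Ucp1, the uncoupling protein of brown fat, had 0 counts in HKII+/- replicates 22 and 19, which allows up to 0.0617 and 0.153 CPM. It measured 6.58 and 12.1 CPM in HKII+/+ replicates 21 and 17. Among atrial-rich libraries it was 0.872 CPM in HKII+/+ replicate 18, 10.2 to 25.1 in 4 libraries and 80.5 in HKII+/+ replicate 14. Both atrial-poor HKII+/+ libraries therefore lay above HKII+/+ replicate 18, and replicate 17 lay inside the range of the other atrial-rich libraries.

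In the fit of all 10 libraries edgeR called no fat gene. Among the HKII+/- libraries alone it called 14 of 19 general and 3 of 6 brown fat genes. Of all genes, 3.51% were called higher and 7.87% lower there. Fat was not alone in this. The same fit called 13 of 14 further atrial, 12 of 13 mesothelial, 9 of 17 Schwann, 6 of 11 ventricular and 12 of 25 oxidative phosphorylation genes. It called 2 of 9 pericyte and 0 of 9 immune genes. For 19 general fat genes the median log2 fold change was -0.90 and 16 estimates were negative, while edgeR called 0, with 13 at unadjusted p below 0.05, 3 called by DESeq2 and 0 by either voom fit. For 6 tested brown fat genes (Elovl3 and Zic1 were too low) the median was -0.54 and edgeR called 0, with 3 at unadjusted p below 0.05 and 0 by DESeq2 or either voom fit. Lep, which encodes leptin, was the single fat gene with no overlap, at 0.0206, 0, 0.145 and 0.426 CPM against 0.639 to 4.29 CPM (median 1.83) (log2 fold change -3.87, SE 0.83, edgeR adjusted p = 0.0558). Lep values of the atrial-poor set rested on 3 or fewer counts in 3 libraries. Plin1, which coats fat droplets, measured 0.185, 0.713, 7.11 and 12.6 CPM against 3.37 to 38.4 CPM, and Cfd, adipsin, 0.761, 2.19, 28.3 and 42.7 CPM against 13.4 to 107 CPM. Fabp4, which heart capillaries also carry, and Plin4, which heart muscle also carries, did not follow, with estimates of 0.070 (SE 0.082) and 0.21 (SE 0.094).

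Of the genes of Schwann cells, the myelinating and glial cells of nerves, Mbp and Ngfr fell in atrial-poor hearts. All 17 tested Schwann cell genes (Mag and Ncmap were too low) had negative estimates with a median of -0.66, 2 were called lower, against 0.936% of all genes, and 5 lay wholly below the atrial-rich set, against 2.84%. Mbp, a main protein of myelin, measured 3.52, 3.62, 4.55 and 7.95 CPM against 9.95 to 14.2 CPM (median 12.6). All 4 atrial-poor values lay below all 6 others, and the log2 fold change was -1.36 (95% interval -1.78 to -0.94, adjusted p = 0.0313 by edgeR's quasi-likelihood test). Ngfr, the low-affinity neurotrophin receptor of Schwann and sympathetic nerve cells, measured 0.637, 0.764, 0.725 and 0.745 CPM against 1.17 to 2.24 CPM (median 2.01) and fell by 1.41 on the log2 scale (SE 0.21, edgeR adjusted p = 0.0313). All 4 atrial-poor values of Ngfr lay close together, in both genotypes. Kcna1, a potassium channel of nerve fibres, measured 3.45, 4.58, 7.40 and 8.59 CPM against 8.66 to 11.2 CPM (median 9.75) and did not pass (edgeR adjusted p = 0.0864).

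Several genes of the nerve cells themselves were also low in atrial-rich HKII+/+ replicate 14. Snap25, a synaptic fusion protein, measured 0.0206, 0, 0.774 and 0.319 CPM in the atrial-poor set, from 1, 0, 16 and 9 counts. In the atrial-rich set it measured 0.0542 CPM in HKII+/+ replicate 14, from 2 counts, and 1.30 to 2.56 CPM in the other 5. Syt1, the calcium sensor of synaptic vesicles, had 0 counts in both HKII+/- atrial-poor libraries, 13 and 15 in the HKII+/+ pair, 5 in HKII+/+ replicate 14 and 26 to 59 in the other 5. So these genes were near 0 in HKII+/- replicates 22 and 19 and in the atrial-rich library with the most Ucp1. Other members of the list were not low in HKII+/+ replicate 14, such as Ddc and Dbh, enzymes of catecholamine synthesis, at 6.13 CPM against 4.29 to 4.88 and 4.39 CPM against 2.79 to 4.75 in the other 5.

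Of 28 neuronal genes listed, 19 were tested, with a median log2 fold change of -0.59. EdgeR called 0, with 8 at unadjusted p below 0.05, 1 called by DESeq2 and 0 by either voom fit. Prph, the filament protein peripherin of peripheral neurons, measured 0.123, 0.357, 0.725 and 0.532 CPM against 0.488 to 3.20 CPM (median 1.98) (log2 fold change -2.29, SE 0.56, edgeR adjusted p = 0.0760), and HKII+/+ replicate 14 was again the lowest atrial-rich library at 0.488 CPM. Slc5a7, the choline transporter of cholinergic endings, measured 0.0411, 0.0509, 1.02 and 0.426 CPM against 0.0271 to 2.15 CPM, with its lowest value, 0.0271 CPM, in HKII+/+ replicate 14. Th, the rate-limiting enzyme of noradrenaline synthesis, had 0, 0, 2 and 12 counts in the atrial-poor and 3 to 13 in the atrial-rich libraries. Gal, the neuropeptide galanin, went the other way, at 1.34, 0.662, 0.967 and 0.816 CPM against 0.244 to 0.841 CPM, and did not pass (log2 fold change 1.11, SE 0.35, edgeR adjusted p = 0.148).

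**Figure D2:**
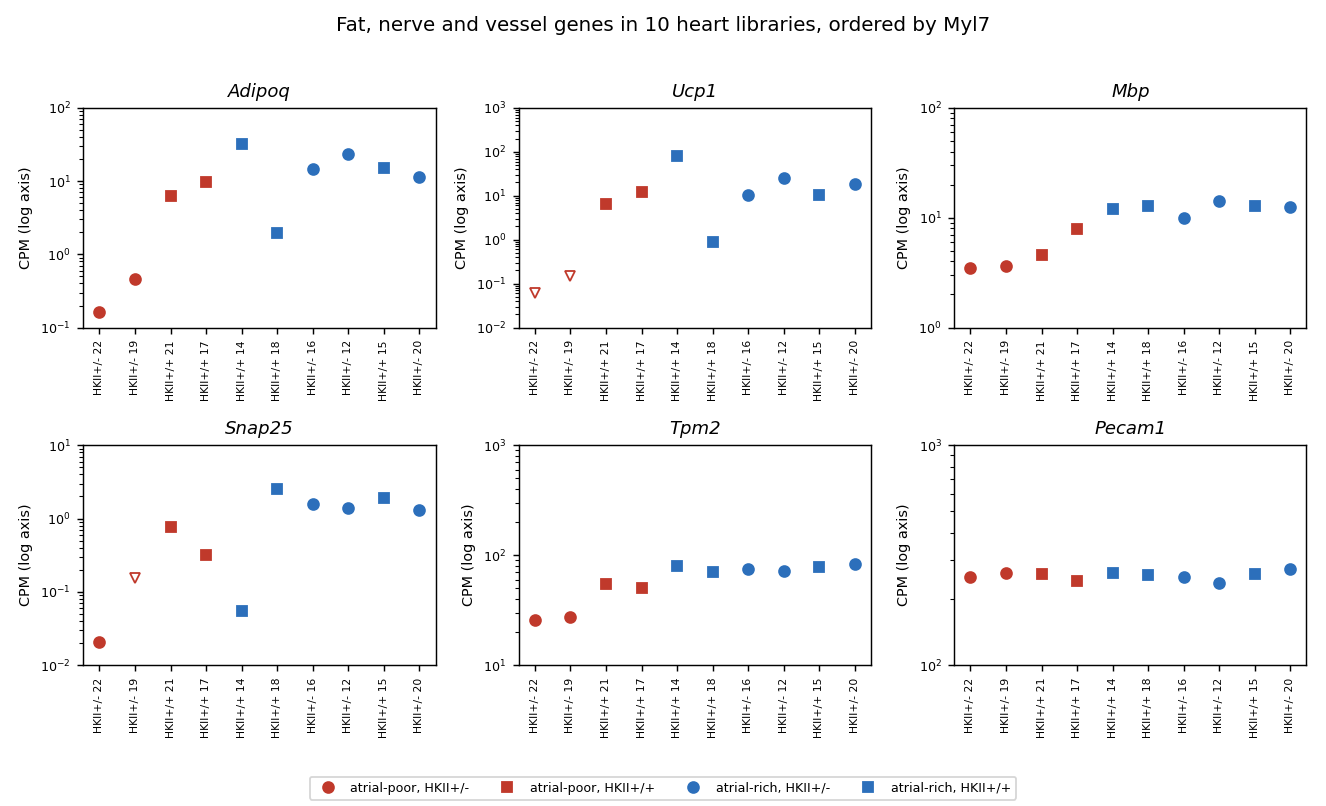
CPM of 6 fat, nerve and vessel genes on log axes in the 10 libraries ordered by Myl7, with symbols as for the atrial genes. Adipoq and Ucp1 are low in HKII+/- replicates 22 and 19 and HKII+/+ replicate 18, Snap25 is low in HKII+/- replicates 22 and 19 and HKII+/+ replicate 14, Mbp and Tpm2 separate the sets, and Pecam1 lies between 236 and 274 CPM in all 10.

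Of the smooth muscle and large vessel matrix genes, edgeR called only Tpm2 and Mfap4, both lower in atrial-poor hearts. Smooth muscle genes had negative estimates in 9 of 11 (median -0.49), and 1 was called lower, Tpm2, against 0.936% of all genes. Tpm2, the beta-tropomyosin of smooth and slow skeletal muscle, measured 25.5, 27.4, 54.98 and 50.1 CPM against 70.8 to 83.8 CPM (median 76.7) (log2 fold change -1.01, 95% interval -1.38 to -0.65, adjusted p = 0.0350 by edgeR's quasi-likelihood test). Its 2 sets did not overlap. Myh11, the smooth muscle myosin heavy chain, measured 80.3, 78.1, 126 and 156 CPM against 103 to 195 CPM (median 153) and did not pass (-0.49, 95% interval -0.91 to -0.075). For Myh11 the HKII+/+ pair lay inside the atrial-rich range, and atrial-rich HKII+/+ replicate 18 was at 103 CPM. Des, also on the smooth muscle list, went the other way, at 2699, 2255, 2655 and 2115 CPM against 1976 to 2220 CPM. It did not pass (log2 fold change 0.23, 95% interval 0.065 to 0.40, edgeR adjusted p = 0.158). Of 10 matrix genes of large vessels, all had negative estimates (median -0.40) and 1 was called lower, against 0.936% of all genes. That gene was Mfap4, an elastic-fibre protein, at 12.4, 12.1, 21.3 and 22.3 CPM against 23.01 to 35.7 CPM (median 28.8) (log2 fold change -0.80, SE 0.16, edgeR adjusted p = 0.0481). Eln, elastin, measured 55.4, 61.5, 86.1 and 126 CPM against 78.9 to 199 CPM, with HKII+/+ replicate 18 the lowest atrial-rich library, and did not pass (edgeR adjusted p = 0.133).

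Capillary genes did not follow the atrial genes. Pecam1, an adhesion protein of all endothelium, measured 252, 264, 259 and 241 CPM against 236 to 274 CPM (median 259), and its log2 fold change was -0.014 with a 95% interval of -0.13 to 0.10. Of 16 capillary genes 13 had positive estimates (median 0.12), and edgeR called 0, with 7 at unadjusted p below 0.05, 4 called by DESeq2 and 0 by either voom fit. Car4, a carbonic anhydrase of capillary walls, measured 29.3, 25.7, 25.3 and 26.8 CPM against 16.4 to 23.5 CPM (median 21.7) with no overlap (log2 fold change 0.37, SE 0.10, edgeR adjusted p = 0.0864). For 9 pericyte genes the median was 0.069, and edgeR called 0, with 2 at unadjusted p below 0.05 and 0 by DESeq2 or either voom fit.

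In the other endothelial lists edgeR called 1 arterial and 1 endocardial gene, against 0.985% of all genes called. Bmx, a kinase of arterial and endocardial endothelium, was the 1 called of 10 arterial genes, at 2.59, 3.77, 3.87 and 4.36 CPM against 4.59 to 7.35 CPM (median 6.90) (log2 fold change -0.87, SE 0.17, edgeR adjusted p = 0.0472), while the arterial median was 0.063. Plvap, the diaphragm protein of fenestrated, venous and endocardial endothelium, was the 1 called of 6 endocardial genes (log2 fold change -0.84, SE 0.15, edgeR adjusted p = 0.0439). Its sets overlapped, since HKII+/+ replicate 17 at 26.1 CPM lay above atrial-rich HKII+/+ replicate 18 at 25.7. At unadjusted p below 0.05 there were 3 of the 10 arterial and 3 of the 6 endocardial genes, against 17.3% of all genes. Voom with weights called 1 and 2, against 274 of all 14423 genes. Of 5 venous genes edgeR called 0, with 3 at unadjusted p below 0.05, 1 called by DESeq2 and 0 by either voom fit. Of 6 lymphatic genes edgeR called 0, with 1 at unadjusted p below 0.05 and 0 by the other tools. Vcam1, an adhesion molecule of veins and inflamed endothelium, stood at -0.28 (95% interval -0.43 to -0.13), and Prox1, a lymphatic and cardiac transcription factor, at 0.070 (-0.22 to 0.35).

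Of the genes of mesothelium, the heart's outer lining, 5 fell in atrial-poor hearts. Of 13 mesothelial genes tested, all had negative estimates (median -1.16), 5 were called lower, against 0.936% of all genes, and 7 lay wholly below the atrial-rich set, against 2.84%. Krt19, a keratin of lining cells, measured 1.03, 1.73, 2.03 and 2.98 CPM against 4.01 to 5.69 CPM (median 5.42) (log2 fold change -1.48, 95% interval -1.92 to -1.03, adjusted p = 0.0313 by edgeR's quasi-likelihood test). Rspo1, a secreted Wnt enhancer, measured 2.26, 3.16, 3.68 and 5.46 CPM against 7.65 to 8.62 CPM, and Msln, mesothelin, 6.91, 9.88, 12.5 and 18.2 CPM against 18.2 to 24.6 CPM. The adjusted p-values of edgeR were 0.0313 and 0.0481, and the other called members were Gpm6a (-1.13) and Krt8 (-1.17). HKII+/- replicates 22 and 19 were the lowest libraries for Krt19, Rspo1 and Msln without nearing 0. Wt1, a transcription factor of the epicardium, did not follow (-0.087, SE 0.13).

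Of other cell types, 12 of 13 fibroblast genes had negative estimates (median -0.28), against 48.9% of all genes. EdgeR called 0, with 9 at unadjusted p below 0.05, against 17.3% of all genes, 2 called by DESeq2 and 0 by either voom fit. Of 9 immune genes tested the median was -0.041 and edgeR called 0, with 0 at unadjusted p below 0.05 and 0 by the other tools. Alas2, the haem synthesis enzyme of red blood cells, was called lower, at 16.1, 14.8, 20.3 and 15.4 CPM against 21.3 to 31.7 CPM (log2 fold change -0.77, SE 0.12, edgeR adjusted p = 0.0313). The adult globin genes Hba-a1, Hba-a2, Hbb-bs and Hbb-bt are listed at 0 in all 10 libraries, so blood content could be read only from Alas2 and Slc4a1. The summed level of the 6 blood genes was 15.2 to 20.99 CPM in atrial-poor and 22.4 to 32.8 CPM in atrial-rich libraries, and its part in the other differences was not tested.

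**Figure D3:**
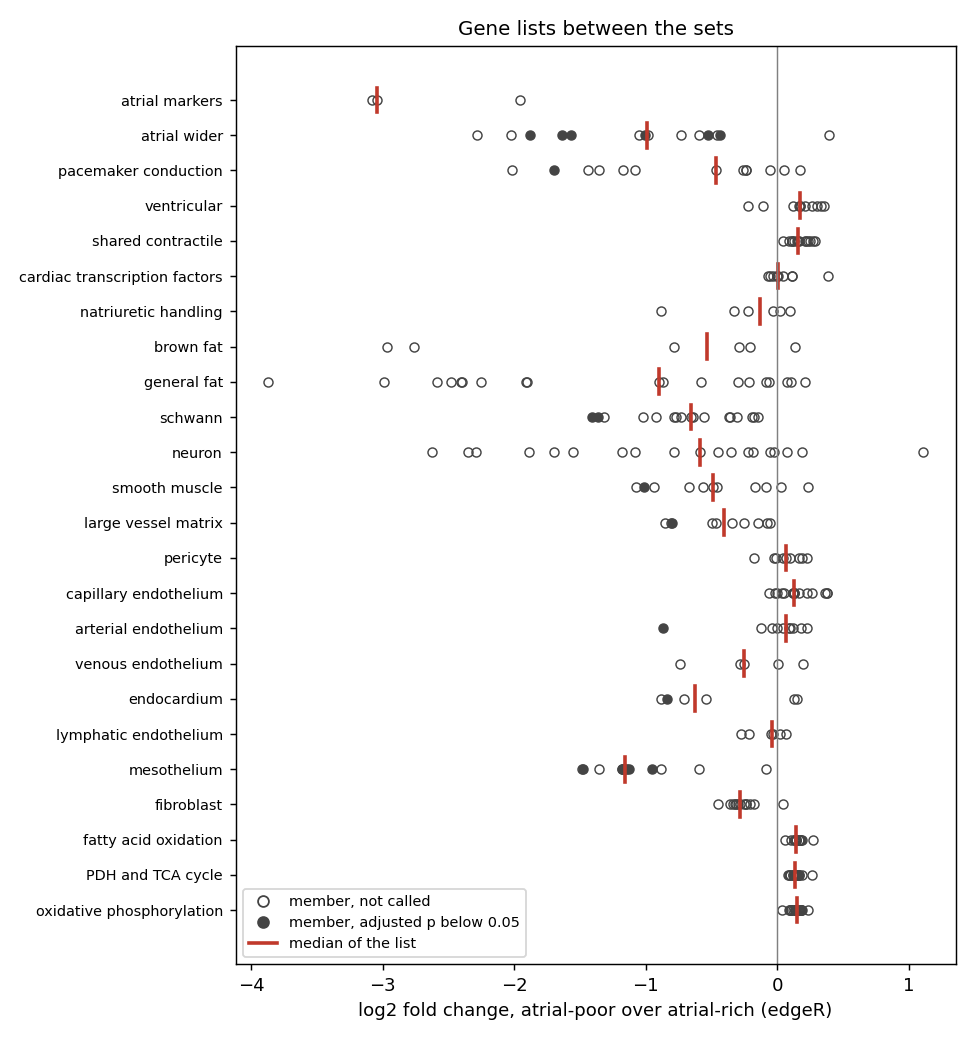
Estimated log2 fold change, atrial-poor over atrial-rich, of the tested members of the main gene lists; each circle is a gene, filled where the edgeR adjusted p is below 0.05, and the red bar is the median of the list. The medians of the atrial, mesothelial, fat, nerve and smooth muscle lists lie left of 0, and those of the capillary, pericyte, ventricular and fuel oxidation lists at or slightly right of it.

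Outside the lists, and among genes with a mean log2 CPM of at least 1, the following had the largest called falls. Ppp1r1b, a phosphatase inhibitor, fell by 3.10 on the log2 scale (SE 0.43, adjusted p = 0.0313 by edgeR's quasi-likelihood test), at 0.247, 0.458, 1.84 and 2.52 CPM against 7.46 to 12.7 CPM (median 9.49). Adamts8, a secreted protease, measured 1.60, 2.14, 4.21 and 4.72 CPM against 9.12 to 21.1 CPM (median 15.8) (log2 fold change -2.40, SE 0.28, edgeR adjusted p = 0.0313). Ptgfr, the prostaglandin F receptor, measured 2.28, 7.03, 10.3 and 10.96 CPM against 19.4 to 33.6 CPM (median 26.9). In all 3 the HKII+/- pair was lowest and no library of one set reached the other set. Adamts19, Rab3b, a GTPase of secretory vesicles, Sbk2, a kinase, and Mt3, a metallothionein, followed with log2 fold changes of -1.90, -1.83, -1.64 and -1.50 (edgeR adjusted p = 0.0405, 0.0463, 0.0472 and 0.0319).

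All 7 genes called higher in atrial-poor hearts rose by less than 2-fold. Cebpb, a transcription factor of inflammation and metabolism, measured 57.2, 41.3, 56.04 and 50.4 CPM against 16.97 to 39.3 CPM (median 30.6) (log2 fold change 0.91, SE 0.18, adjusted p = 0.0481 by edgeR's quasi-likelihood test). Irx1, a transcription factor of the ventricular septum, measured 8.10, 9.98, 8.37 and 6.99 CPM against 3.84 to 5.93 CPM (median 5.06) (log2 fold change 0.75, SE 0.13, edgeR adjusted p = 0.0402). Mbd1, a reader of methylated DNA, rose by 0.52, Ppp2ca, a catalytic phosphatase subunit, by 0.29, Coq10a, a coenzyme Q binding protein, by 0.28 and Pla2g12a, a phospholipase, by 0.34 on the log2 scale. AI507597, annotated as an antisense RNA, rose by 0.66, and without a stated strand setting its reads cannot be told from those of an overlapping gene. The 4 atrial-poor libraries lay above all 6 others in each of these 7 genes.

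Within the genotypes the size of the difference was unequal. Among the HKII+/- libraries alone (2 against 3), edgeR called 500 genes higher (3.51%) and 1121 lower (7.87%). Among the HKII+/+ libraries alone (2 against 3) it called 0, with 841 (5.81%) at unadjusted p below 0.05. Of the 141 called genes with both estimates, 131 had the larger absolute difference in HKII+/-. The same share over all genes tested was not taken, so nothing particular to the called genes is read from this count. The median of genes called lower was -1.16 in HKII+/- and -0.58 in HKII+/+. A test of the difference itself, the interaction of set and genotype in edgeR, called 75 genes (0.513%), 73 of them (0.5%) with the larger fall or smaller rise in HKII+/- and 2 (0.0137%) the reverse. DESeq2 called 300. Both atrial-poor HKII+/- libraries had far less Myl7 than both atrial-poor HKII+/+ libraries, so genotype and Myl7 level cannot be told apart in this test.

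The interaction genes ranged from near absent in HKII+/- replicates 22 and 19 to well expressed there, as Pam and Nppa above. Fgf12, an intracellular regulator of sodium channels, measured 0.267, 0.764, 12.8 and 17.4 CPM against 28.4 to 38.5 CPM (interaction -5.44 on the log2 scale, SE 0.32, edgeR adjusted p = 5.24e-05). Mybphl, a myosin-binding protein of atrial and conduction muscle, measured 0.247, 4.38, 38.97 and 60.6 CPM against 102 to 158 CPM. Hamp, the iron hormone hepcidin, measured 0, 0.102, 3.05 and 5.46 CPM against 3.49 to 8.41 CPM. Irx3, a transcription factor of ventricular conduction, was one of the 2 exceptions, with a log2 difference of 0.72 in HKII+/- and 0.008 in HKII+/+ (edgeR adjusted p = 0.0305). These 4 genes were chosen after their values were seen.

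**Figure D4:**
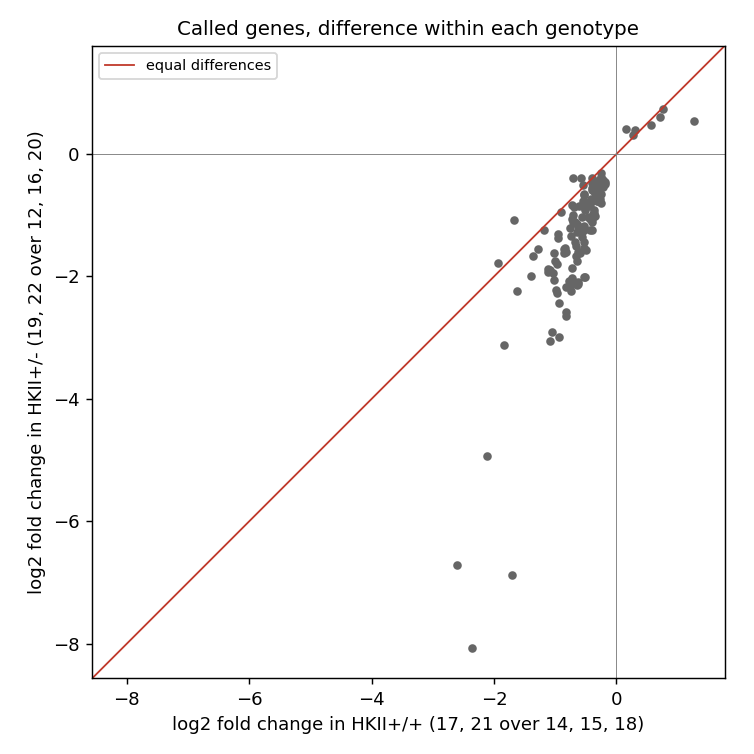
Estimated log2 fold change of the called genes in the HKII+/- libraries (vertical axis) against that in the HKII+/+ libraries (horizontal axis); each point is a gene and the line marks equal differences. Of 141 genes, 131 have the larger absolute difference in HKII+/-, and the share over all genes tested was not taken.

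The libraries left out for their mark lay on both sides of the threshold. HKII+/- replicate 11 had 626 CPM of Myl7, 122 of Bmp10 and 210 of Adipoq, and HKII+/+ replicate 13 had 199 CPM of Myl7, 95.7 of Bmp10 and 0.299 of Adipoq, all of the library total. With both added to the sets by the same threshold, edgeR called 0 of 14354 genes, with 703 at unadjusted p below 0.05.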

How the data were processed

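Poly(A) RNA of 12 mouse hearts was sequenced as single reads of 100 nt, per the labels' protocols. Each library has a deposited table of raw counts per gene symbol, which the authors did not normalise. STAR 2.4.0, featureCounts 1.4.4 and the builds mm10 and GRCm38 are named in the submitters' processing notes, and an annotation release or strand setting was not given in the sources used here. The 12 tables share 24061 symbols.

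Genotypes came from the sample titles. The sets, the gene lists and the comparisons were chosen with earlier results of these data known. The labels give no batch, so none could be checked. No pair of replicates of a genotype agreed within sampling noise (lowest chi-square per degree of freedom 7.034, genes with at least 20 counts).

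Counts of the 10 unmarked libraries were compared with edgeR 4.0.16 (glmQLFit, glmQLFTest, TMM factors, filterByExpr with a minimum count of 10), with set and genotype as terms, and a second fit added their interaction. P-values were adjusted by Benjamini-Hochberg over all genes tested other than Myl7, and called genes had an adjusted p below 0.05. Log2 fold changes are atrial-poor over atrial-rich with their SE or 95% interval. Each SE was derived as the absolute log2 fold change divided by the square root of the quasi-likelihood F statistic. The intervals were built from these SE, so both are approximate. R was 4.3.3, and the fit was tested on simulated data. Alternatives used DESeq2 1.42.0, limma 3.58.1 (voom with and without sample quality weights), other scaling factors and filters, no genotype term, log2 Myl7 as a continuous term, all 12 libraries, either genotype alone, a threshold of 0.01 and leaving out each library.

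Named genes were the 4 atrial markers, up to 10 called genes per direction with the largest change and a mean log2 CPM of 1 or more, from each chamber, fat, nerve and vessel list the 3 members of smallest p with a mean log2 CPM of 0 or more, and Nppa, Myl2, Myh6, Ucp1, Adipoq, Th, Myh11, Pecam1 and Hk2. Other genes were named after their values were seen, and some genes, including 1 that the rule takes, are not reported here. Promoters and their coordinates are from RefSeq on GRCm38.p6.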

Additional observations from a re-analysis of the deposited data

Results flagged for a closer look

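A library was singled out where its gap to the next value of its set was large for the range of the set by Dixon's test, which marks about 1 in 20 groups by chance. Over the named genes, 14 of 160 groups were marked. In the atrial-rich set HKII+/+ replicate 18 was the lowest library for Bmp10 (0 CPM, next 190.2), Bmx (4.59, next 6.37) and Npr3 (52.9, next 84.2), and the highest for Ly6c1 (97.5, next 83.5), Mb (12678, next 11562) and Myl3 (5096, next 4429.8). HKII+/+ replicate 14 was lowest for Ngfr (1.17 CPM, next 1.87) and highest for Ucp1 (80.5, next 25.1). HKII+/- replicate 12 was highest for Gfra2 (3.50 CPM), and HKII+/- replicate 20 for Sbk2 (44.0). In the atrial-poor set HKII+/+ replicate 17 was highest for Fbln1 (143 CPM, next 103) and Tbx18 (8.52, next 6.62) and lowest for Sox17 (18.2, next 22.8), and HKII+/- replicate 22 was lowest for Slc18a2 (2.24, next 3.34). Of these 14, HKII+/+ replicate 18 accounted for 6.

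The difference between the sets differed between the genotypes for 75 genes by edgeR's interaction test. Among named genes, the difference in HKII+/- minus that in HKII+/+, on the log2 scale, was -6.03 for Sln, -5.31 for Myl4, -2.82 for Ppp1r1b, -2.61 for Nppa, -2.05 for Rab3b, -1.97 for Adamts19, -1.82 for Sbk2, -1.75 for Stard10, -1.29 for Gja5, -1.15 for Kcna1, -1.06 for Pam and -1.005 for Tpm2. Those of the atrial genes are descriptions.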

How the results depend on the processing

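All 142 calls lay just under the threshold, and the depth of 17263209 to 51556592 counts limits genes near the level of 3 counts. Leaving out each library in turn gave 0 to 579 called genes, 0 to 101 higher, 0 to 481 lower and 26 to 130 for the interaction. RLE, upper-quartile scaling, a minimum count of 50 and limma voom gave 147, 160, 120 and 187 calls, and no genotype term 202. The number called moved by over 1.5 times with library totals alone (248; 4 higher, 244 lower), no filter (258; 27, 231), DESeq2 (644; 148, 496), sample quality weights (274; 30, 244) and log2 Myl7 as a continuous term (1302; 424, 878). It also moved with HKII+/- alone (1621; 500, 1121), and it was 0 with all 12 libraries, HKII+/+ alone or a threshold of 0.01, where 703, 841 and 2494 genes had an unadjusted p below 0.05. Calls higher in atrial-poor hearts numbered 4 with a minimum count of 50, 11 with voom and 22 without the genotype term. The interaction called 134 with no filter and 300 with DESeq2. The cause of these changes was not tested.

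In alternatives chosen after seeing the data, edgeR called 0 without both HKII+/- atrial-poor libraries (1035 at unadjusted p below 0.05, 0 higher, 0 lower) and 1422 without both HKII+/+ atrial-poor libraries (492 higher, 930 lower). Without either pair, all 142 called genes kept their sign. Nearly all of these genes had no overlap between the sets, so their sign in fewer of the same libraries was largely fixed beforehand.

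Estimates that changed sign were small or not called. With HKII+/+ alone and without both HKII+/- atrial-poor libraries, the log2 fold changes were 0.34 and 0.34 for Bmp10, -0.016 and -0.018 for Hk2, 0.20 and 0.20 for Lyve1, -0.036 and -0.039 for Mef2d, -0.027 and -0.030 for Myh6, -0.071 and -0.074 for Notch3, and 0.093 and 0.10 for Th. With HKII+/- alone and without both HKII+/+ atrial-poor libraries they were -0.15 and -0.15 for Hand2, 0.019 and 0.023 for Pecam1, and -0.052 and -0.049 for Prox1. Leaving out 1 library in turn gave -0.042 to 0.013 for Pecam1 (0.0088 without HKII+/- replicate 20) and -0.0075 to 0.16 for Prox1 (-0.0065 without HKII+/+ replicate 17). Prox1 was at -0.0065 with library totals alone, and Nkx2-5 was at 0.19 with all 12 libraries. The airway list had no member left at a minimum count of 50. No paired analysis was possible because no replicate number occurs in both genotypes.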

Other observations

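The libraries with Bmp10 below 1 CPM, atrial-rich HKII+/+ replicate 18 and atrial-poor HKII+/- replicates 19 and 22, shared a small group of near-absent genes. In 9 genes including Bmp10 the highest of these 3 libraries was at most 25% of the lowest of the other 7, which had at least 0.5 CPM. Besides Ucp1 they included Acvr1c, an activin-type receptor of adipocytes, Slc27a2, a fatty acid transporter, Chdh, choline dehydrogenase, Cd207, known as langerin, Slc24a4, an ion exchanger, and Cst9, a cystatin. Cd207 measured 0.116, 0.458 and 0.0411 CPM in HKII+/+ replicate 18 and HKII+/- replicates 19 and 22, and 1.89 to 3.19 CPM in the other 7. Acvr1c measured 0.232, 0 and 0.0823 CPM against 1.21 to 3.50 CPM. Both HKII+/+ atrial-poor libraries were among the 7 with these genes. The group was chosen after its values were seen and has no test.

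Ms4a1, a B cell surface gene, stood out in 1 atrial-rich library, at 4.31 CPM in HKII+/+ replicate 15 against 0.230 to 1.28 CPM in the other 9. Of the 5 lymphoid genes tested between the sets edgeR called 0, with 0 at unadjusted p below 0.05 and 0 by DESeq2 or voom.

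Some early response genes were low in 2 atrial-rich libraries. Nr4a1, an orphan nuclear receptor induced within minutes of a stimulus, measured 15.9 CPM in HKII+/+ replicate 14 and 28.3 in HKII+/+ replicate 18, against 61.2 to 164 CPM in the other 8. Fos was also lowest in these libraries, at 4.91 and 2.27 CPM. Others were low in only 1 of these libraries. Egr1 stood at 26.3 CPM in HKII+/+ replicate 14, above 3 atrial-poor libraries, but was the lowest of the 10 in HKII+/+ replicate 18. Ier3 stood at 30.04 CPM in HKII+/+ replicate 18, the highest of the 10, but was among the lowest in HKII+/+ replicate 14. Of 23 such genes edgeR called 0 between the sets, with 2 at unadjusted p below 0.05 and 0 by DESeq2 or voom.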
